A study of Mus musculus with 8 samples.

Results

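Mitochondria carry a small circular genome of their own, and every protein that copies or transcribes it is encoded in the nucleus. The RNA polymerase POLRMT starts transcription together with TFAM, which bends and packages the DNA, and TFB2M, which helps to open the promoter. Replication uses the DNA polymerase POLG with its accessory subunit POLG2, and SSBP1 coats the single-stranded DNA. NRF-1 and GABP are nuclear transcription factors that act on genes for these proteins and for the respiratory chain. The heart, which depends on respiration for its contraction, is rich in mitochondria.

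The 10 genes described here encode these factors and TFB1M, a relative of TFB2M: Tfam, Tfb1m, Tfb2m, Polrmt, Polg, Polg2, Ssbp1, Nrf1, Gabpa and Gabpb1. They are defined by name, as a group of mitochondrial DNA transcription and replication factors with their nuclear regulators. All 10 of 10 were found among the 19933 genes with a transcript cluster of their own (the array's gene-level probe set). All 10 also lay above the filter on dim genes, which left 14950 genes for the test. Nrf1 here is nuclear respiratory factor 1, not the antioxidant regulator with a similar name.

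Heart RNA came from 8 C57BL/6 males on normal chow, 6 weeks old, with Affymetrix Mouse Gene 1.0 ST arrays as the readout. The wild-type group (WT) and the group deficient in HDAC3 (KO) had 4 mice each. HDAC3 is a deacetylase of histones and the catalytic part of the NCoR and SMRT corepressor complexes. The study calls the deficient mice MCH3-KO. The promoter that drove the deletion, the heart cells it reached and whether the WT mice carried any allele of it are not stated in the labels. Titles number the hearts as biological replicates, with 1 array per heart. Hdac3 itself was 10.04 to 10.20 in WT hearts and 8.50 to 8.59 in KO hearts (log2 intensity), so each array matched its label. Cardiomyocyte markers were bright in both groups, and the summed intensity of 8 of them ran from 56266 to 57348 in WT and from 52858 to 53937 in KO hearts. The summed intensity of 8 macrophage markers ran from 2693 to 3040 in WT and from 6158 to 8014 in KO hearts. In bulk tissue, fewer cells of a type and less RNA per cell cannot be told apart.

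The promoters of the members that changed are shown first, because NRF-1 and GABP, described as regulators of such genes, are members as well. All 10 genes had an entry in the RefSeq promoter table of GRCm38.p6, with 12 start sites in all. The 250 bases before the start are given 5′ to 3′ on the gene's strand for Tfam (chr10:71238045-71238294, minus strand), Tfb2m (chr1:179546277-179546526, minus strand) and Polrmt (chr10:79746582-79746831, minus strand). Capitals mark matches on either strand to CCGGAAG, the core of the site of GABP, or to GGGCGG, the core of the site of Sp1.
Tfam: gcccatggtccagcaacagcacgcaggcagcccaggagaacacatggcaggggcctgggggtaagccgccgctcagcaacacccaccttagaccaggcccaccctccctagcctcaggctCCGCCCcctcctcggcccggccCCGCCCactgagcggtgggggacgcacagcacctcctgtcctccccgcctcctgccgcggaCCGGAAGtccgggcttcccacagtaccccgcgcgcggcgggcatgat
Tfb2m: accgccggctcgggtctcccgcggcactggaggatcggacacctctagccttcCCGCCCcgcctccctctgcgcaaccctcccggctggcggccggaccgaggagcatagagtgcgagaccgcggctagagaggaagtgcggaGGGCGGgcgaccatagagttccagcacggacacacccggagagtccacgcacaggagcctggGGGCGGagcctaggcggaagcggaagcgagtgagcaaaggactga
Polrmt: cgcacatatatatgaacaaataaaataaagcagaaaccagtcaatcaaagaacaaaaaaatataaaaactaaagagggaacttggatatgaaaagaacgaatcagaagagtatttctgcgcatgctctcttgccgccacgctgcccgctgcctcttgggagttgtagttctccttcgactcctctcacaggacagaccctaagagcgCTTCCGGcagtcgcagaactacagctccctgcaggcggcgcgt

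The GABP core was found in the windows of Tfam and Polrmt, at 47 to 41 and 43 to 37 bases before the start, and not in that of Tfb2m. Over the 12 windows of the 10 genes it was found in 6, against 8.98% of 21263 windows of protein-coding genes and 6.91% of all 32851 windows. In 5 of these 6 it lay within the last 50 bases, where 4.06% of protein-coding windows hold it. The members include genes that GABP is described to act on, and the motif letters were chosen after the values were seen. These shares are thus a description with no test. The last 100 bases are shown for the other genes with a GABP match, to let its place be compared: Polg (chr7:79466274-79466373, minus strand), Polg2 (chr11:106779538-106779637, minus strand), Ssbp1 (chr6:40471368-40471467, plus strand) and Gabpa (chr16:84835024-84835123, plus strand). Capitals mark the same motifs and, in Gabpa, also AANATGGCG, the core of the site of YY1.
Polg: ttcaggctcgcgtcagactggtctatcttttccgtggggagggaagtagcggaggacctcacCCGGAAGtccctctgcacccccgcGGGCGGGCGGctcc
Polg2: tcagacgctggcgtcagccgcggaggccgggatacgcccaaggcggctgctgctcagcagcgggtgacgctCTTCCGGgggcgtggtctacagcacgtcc
Ssbp1: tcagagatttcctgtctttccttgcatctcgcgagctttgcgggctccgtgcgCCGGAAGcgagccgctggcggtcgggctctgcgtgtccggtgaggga
Gabpa: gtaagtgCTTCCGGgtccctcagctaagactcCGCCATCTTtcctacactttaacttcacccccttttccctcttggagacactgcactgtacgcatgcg

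The GABP core lies on the gene's strand in Tfam, Polg and Ssbp1, and it lies on the opposite strand in Polg2, Polrmt and Gabpa. An NRF-1 core, GCGCANGCG, was found in 1 of the 12 windows, the more distal start of Gabpb1 (7.08% of protein-coding windows). The Sp1 core was in 7 of 12 windows (42.6% of protein-coding windows), and in Polg both of its matches overlap each other. The YY1 core was in 1 window (1.34%). A match is a stretch of letters and not a measured binding site, and sites that differ from these cores were not searched for.

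In KO hearts the messenger RNAs of TFAM and TFB2M were more abundant and that of POLRMT less abundant, so the transcripts of the 3 factors that start mitochondrial transcription differed in direction. The transcripts of TFB1M, of the replication proteins POLG, POLG2 and SSBP1 and of the regulators NRF-1 and GABP did not pass the test. With limma over all genes and Benjamini-Hochberg adjustment (threshold 0.05), 2 of 10 members rose, 1 fell and 7 did not pass. Among all genes tested 24.6% passed, 10.8% higher and 13.9% lower, so the members' share lies near the background. The median difference of the members was -0.02 and that of all genes tested -0.01 (KO minus WT, log2). The labels name biological replicates, and 4 arrays per group limit the precision of every difference.

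Tfam, whose protein packages mitochondrial DNA and bends it at promoters, had log2 intensities of 6.56, 6.54, 6.26 and 6.25 in the 4 WT hearts and 6.91, 6.59, 7.09 and 6.74 in the 4 KO hearts. Every KO heart lay above every WT heart, but the second KO heart was only just above the first WT heart. The mean rose from 6.40 ± 0.17 to 6.83 ± 0.21 (SD, n = 4), a difference of 0.43 (SE 0.11, 95% interval 0.18 to 0.68, limma adjusted p = 0.0183). KO hearts thus held 135% of the WT level, with an interval of 113% to 161%. Tfam was also the member with the widest spread among KO hearts. Its adjusted p was 0.051 without WT replicate 3 and 0.0545 without KO replicate 1, within a range of 0.00681 to 0.0545 over 17 alternatives, and the difference stayed between 0.35 and 0.51.

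Tfb2m, whose protein helps POLRMT to melt the promoter, was 9.98, 9.89, 9.99 and 10.03 in WT hearts and 10.14, 10.34, 10.42 and 10.11 in KO hearts. The groups did not overlap, and the WT hearts lay close together. The mean rose by 0.28 (SE 0.08, 95% interval 0.11 to 0.45, limma adjusted p = 0.0205), to 122% of the WT level. A second, dimmer cluster with the same gene symbol gave 9.33, 9.18, 9.18 and 9.23 in WT and 9.48, 9.47, 9.57 and 9.49 in KO hearts, also without overlap. It differed by 0.27 (SE 0.05). The 2 clusters thus differed by 0.28 and 0.27. The labels do not say which probes each holds, and whether both read Tfb2m itself was not tested. Without KO replicate 2 the brighter cluster differed by 0.25, with an adjusted p of 0.0624 (range 0.00583 to 0.0624 over 17 alternatives).

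Polrmt, the mitochondrial RNA polymerase itself, was 8.05, 8.07, 8.08 and 8.03 in WT hearts and 7.89, 7.81, 7.74 and 7.94 in KO hearts. All KO hearts lay below all WT hearts, and WT hearts differed little from each other (SD 0.02, against 0.09 in KO). Polrmt fell to 86.2% of the WT level, a log2 difference of -0.21 (SE 0.05, 95% interval -0.33 to -0.09, limma adjusted p = 0.0159), and had the smallest p of the 10 members. With quantile normalization of the arrays the difference was -0.18 and its adjusted p 0.0557 (range 0.00807 to 0.0557 over 17 alternatives). The third KO heart held the highest Tfam and Tfb2m and the lowest Polrmt of all 8 hearts.

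**Figure D1:**
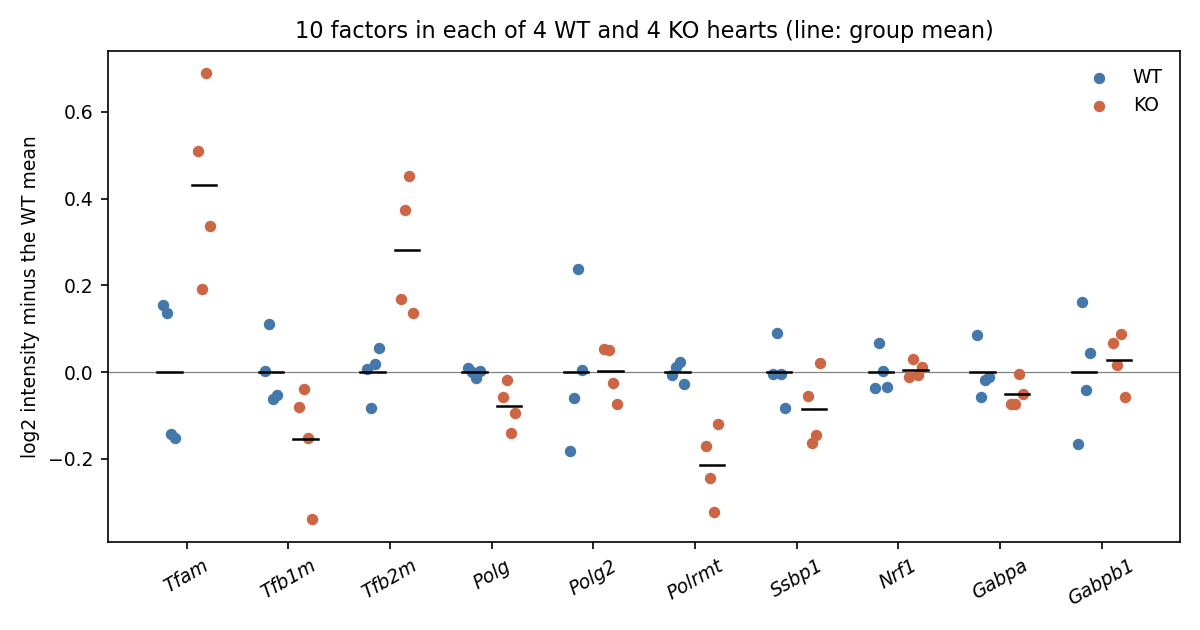
Log2 intensity of each of the 10 genes in each heart, minus that gene's WT mean, with WT hearts in blue, KO hearts in orange and a line at each group mean (n = 4 per group). All KO points lie above the WT points for Tfam and Tfb2m and below them for Polrmt and, by very little, for Polg. They overlap for the other 6 genes.

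Tfb1m, a relative of TFB2M that methylates the small ribosomal RNA of mitochondria, was 7.82, 7.93, 7.75 and 7.76 in WT hearts and 7.73, 7.78, 7.66 and 7.48 in KO hearts. The groups overlapped, since the second KO heart was above 2 WT hearts. The difference was -0.15 (SE 0.07, 95% interval -0.31 to 0.01, limma adjusted p = 0.16) and did not pass. After the 3 genes that passed, it had the largest difference in size, and its interval reaches down to 80.4% of the WT level.

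Among the replication factors, Polg, the catalytic subunit of the mitochondrial DNA polymerase, was 7.52, 7.51, 7.49 and 7.51 in WT hearts and 7.45, 7.49, 7.37 and 7.41 in KO hearts. The KO hearts all lay below the WT hearts, though the second KO heart missed the third WT heart by little. WT hearts were nearly equal (SD 0.01). The difference of -0.08 (SE 0.05, 95% interval -0.18 to 0.03, limma adjusted p = 0.268) did not pass. Absence of overlap was found for 4 of 10 members and for 28.6% of all genes tested.

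Polg2, which encodes the accessory subunit that keeps POLG on its template, was 4.61, 4.74, 5.04 and 4.80 in WT hearts and 4.85, 4.85, 4.77 and 4.72 in KO hearts. Its values lay close to the filter on dim genes (log2 4.50), and the WT hearts enclosed all KO hearts. The difference was 0.0018 (95% interval -0.18 to 0.19, limma adjusted p = 0.993), and its sign turned with another scaling of the arrays.

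Ssbp1, whose protein coats single-stranded mitochondrial DNA, was 7.37, 7.46, 7.37 and 7.29 in WT hearts and 7.32, 7.21, 7.23 and 7.39 in KO hearts. The groups overlapped, with the fourth KO heart above 3 of the WT hearts. The difference was -0.09 (SE 0.06, 95% interval -0.22 to 0.05, limma adjusted p = 0.351). A dimmer cluster with the same gene symbol was 6.35, 6.27, 6.47 and 6.09 in WT hearts and 6.27, 6.17, 6.22 and 5.89 in KO hearts. It differed by -0.16 (SE 0.10) and did not pass either. The labels do not say which probes each cluster holds, so which cluster reads Ssbp1 itself was not tested.

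The 3 genes of the nuclear regulators showed the smallest differences after Polg2. Nrf1 was 6.26, 6.37, 6.30 and 6.26 in WT hearts and 6.29, 6.33, 6.29 and 6.31 in KO hearts. All 4 KO hearts lay within the WT range, and the difference was 0.0057 (95% interval -0.10 to 0.11, limma adjusted p = 0.952). Its sign turned under other scalings, and the interval spans 93.5% to 108% of the WT level.

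Gabpa, the DNA-binding subunit of GABP, was 8.35, 8.21, 8.25 and 8.25 in WT hearts and 8.19, 8.19, 8.26 and 8.22 in KO hearts. The 2 lowest values were KO hearts, but the groups overlapped, and the difference was -0.05 (95% interval -0.16 to 0.06, limma adjusted p = 0.523). Gabpb1, the partner subunit that activates transcription, was 6.78, 7.11, 6.91 and 7.00 in WT hearts and 7.02, 6.97, 7.04 and 6.89 in KO hearts. The KO values lay inside the wider WT range, with a difference of 0.03 (95% interval -0.13 to 0.19, limma adjusted p = 0.827).

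**Figure D2:**
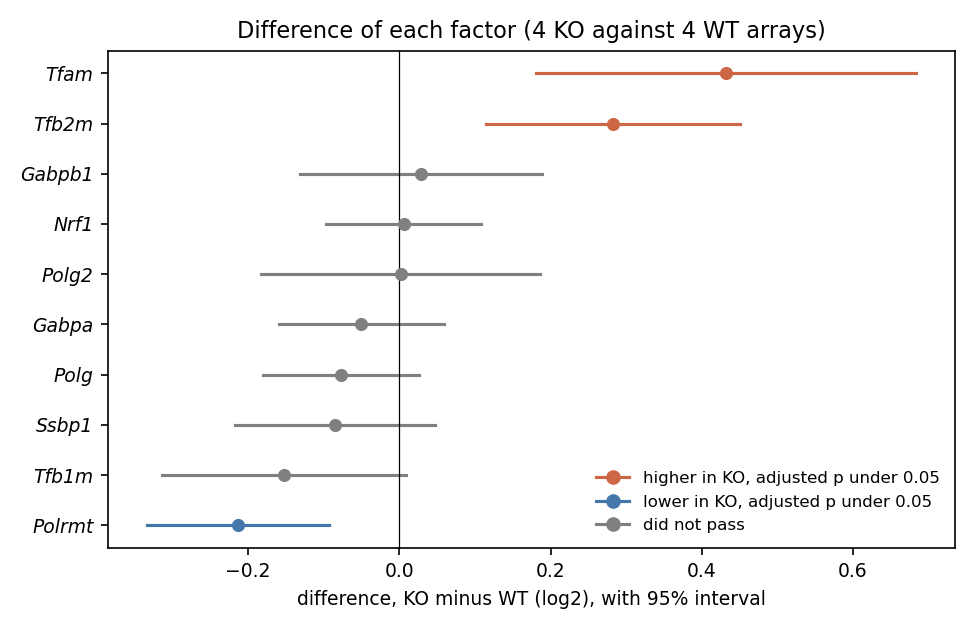
Difference of each gene between 4 KO and 4 WT arrays (points, KO minus WT, log2) with its 95% interval from limma (lines). The intervals of Tfam (0.18 to 0.68), Tfb2m (0.11 to 0.45) and Polrmt (-0.33 to -0.09) do not reach 0, while those of the 7 grey genes do.

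The ratio of 4 pairs of members was taken within each heart, which removes any scaling shared by the array. The pairs were chosen after the values were seen, so the ratios are a description with no test. Relative to the WT mean, the log2 ratio of Tfb2m to Tfb1m lay between -0.19 and 0.11 in WT hearts and between 0.25 and 0.60 in KO hearts. The groups differed by 0.44 (SE 0.10), and all 4 KO hearts lay above every WT heart. The dimmer cluster of Tfb2m gave 0.43. The ratio combines the differences of Tfb2m (0.28) and Tfb1m (-0.15) given above and is no separate result. The ratio of Tfam to Polrmt lay between -0.16 and 0.16 in WT and between 0.44 and 1.01 in KO hearts, a difference of 0.65 (SE 0.16). Since Tfam was higher and Polrmt lower in every KO heart than in any WT heart, this ratio could not overlap and only restates those values.

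The remaining pairs were the subunits of the DNA polymerase and of GABP. Polg2 against Polg differed by 0.08 (SE 0.10) and Gabpb1 against Gabpa by 0.08 (SE 0.10), and KO hearts lay inside the WT range for both. The ratios are not thereby shown to be equal.

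**Figure D3:**
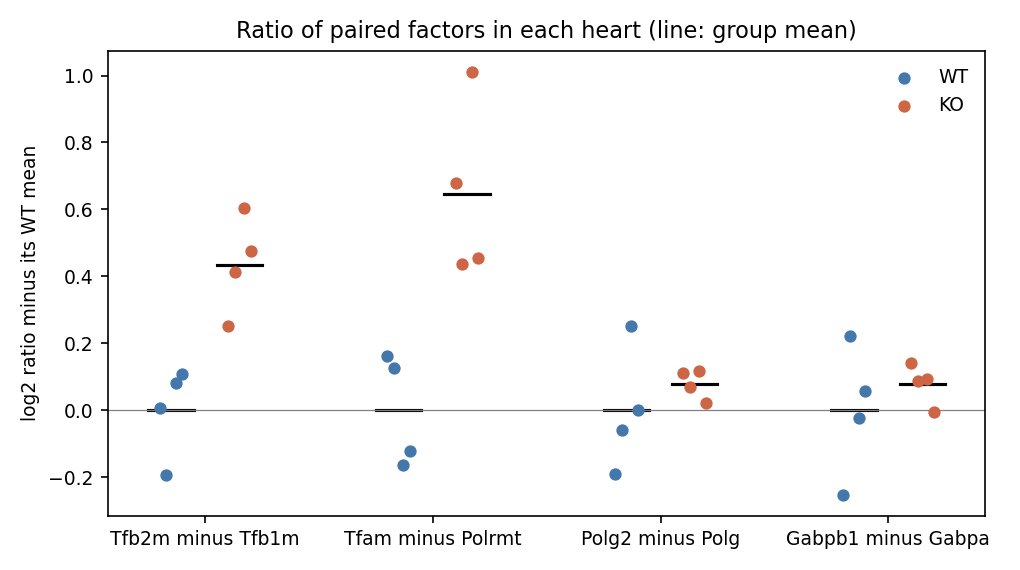
Log2 ratio of 4 pairs of factors in each heart, minus the WT mean of that ratio (WT blue, KO orange, line at the group mean, n = 4 per group). KO hearts stand above all WT hearts for Tfb2m to Tfb1m (0.25 to 0.60) and Tfam to Polrmt (0.44 to 1.01), and inside the WT range for the other pairs.

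The transcripts that these factors make could be read from 3 clusters of 2 genes encoded by mitochondrial DNA, while the other 13 of the 15 listed had no cluster of their own. The respiratory complex I gene ND3 was 13.37, 13.33, 13.29 and 13.28 in WT hearts and 13.26, 13.19, 13.30 and 13.23 in KO hearts. Its difference was -0.07 (SE 0.05, limma adjusted p = 0.303), and a dimmer ND3 cluster gave -0.04. The cytochrome oxidase gene COX2 was 12.97, 12.82, 12.91 and 12.86 in WT hearts and 12.88, 12.84, 12.98 and 12.79 in KO hearts, with a difference of -0.02 (SE 0.06, limma adjusted p = 0.883) that changed sign when single hearts were left out. Groups overlapped for both genes, and neither passed. Both were among the brightest genes tested (level percentiles 99.97 for ND3 and 99.88 for COX2). Whether the arrays still register differences fully at that level was not tested. No mitochondrial DNA copy number was measured.

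Other genes that copy, repair or package mitochondrial DNA showed 3 falls and 0 rises by limma among 13 (23.1% called, against 24.6% of all genes tested), with a median of 0.04. Primpol (0.23) and Lonp1 (0.14) were the 2 higher genes of this list with an unadjusted p under 0.05. Endog, a nuclease of mitochondria, fell by 0.35 on the log2 scale (SE 0.06, limma adjusted p = 0.00118). Lig3, the DNA ligase that seals the replicated genome, fell by 0.29 (SE 0.07, limma adjusted p = 0.0112). Both passed in all 17 alternatives. The helicase gene Twnk, whose protein unwinds DNA ahead of POLG, fell by 0.16 (SE 0.05, limma adjusted p = 0.0401), but it passed in 8 of 17 alternatives only (adjusted p 0.0172 to 0.12). Leaving out any of WT replicates 1, 3 and 4 or KO replicates 1, 2 and 4 ended its call, with differences of -0.17 to -0.14. Lonp1, a protease of the mitochondrial matrix that degrades TFAM, had 0.14 (limma adjusted p = 0.0512, range 0.0255 to 0.127 over the alternatives) and passed in 5 of 17. It and Primpol were named after their values were seen. With array weights 3 genes of this list rose. With the dim filter at the 50th percentile, 7 of the 13 genes were left, of which 1 rose and 4 fell, with a median of -0.14. Of all 9967 genes tested under that filter, 1461 rose and 2217 fell, with a median of -0.03. The median of this list thus depends on its dim genes.

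In the list of elongation, termination and mitochondrial RNA processing, 7 of 30 measured genes fell and 1 rose (26.7% called, against 24.6% of all genes), and 22 of 30 had a negative difference. Of all genes tested, 7744 of 14950 had a negative difference. The median of the list was -0.08 and that of all genes tested -0.01. Mrm1, which methylates mitochondrial ribosomal RNA, fell by 0.48 on the log2 scale (SE 0.07, limma adjusted p = 0.000954), the largest fall of the list. The FAST kinase family genes Fastkd1 and Fastk, which act on mitochondrial RNA, fell by 0.33 (SE 0.06) and by 0.24 (SE 0.04). Hsd17b10, a subunit of the enzyme that trims mitochondrial transfer RNAs and also a dehydrogenase of isoleucine breakdown, fell by 0.31 (SE 0.05). Lrpprc, which stabilises mitochondrial messenger RNAs, fell by 0.22 (SE 0.04, limma adjusted p = 0.0048). These 5 genes passed in all 17 alternatives. The gene that rose was Mrpl12 (0.16, SE 0.04, limma adjusted p = 0.021), named after its values were seen, a protein of the mitochondrial ribosome that also binds POLRMT. Its adjusted p was 0.0572 without WT replicate 4 and 0.0698 without KO replicate 1 (range 0.0070 to 0.0698). Mterf3 and Elac2, also named after their values were seen, differed by -0.22 and -0.17 and passed in 11 and 7 of 17 alternatives. Mterf3, a repressor of mitochondrial transcription, lost its call without WT replicate 3 or 4 or KO replicate 1, 2 or 4 (adjusted p 0.0696 to 0.103). Elac2, which cuts the trailing end of transfer RNAs, lost its call without any 1 heart other than WT replicate 1 (adjusted p 0.0643 to 0.114).

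Genes that supply nucleotides for mitochondrial DNA showed 3 rises and 4 falls among 15 measured genes (46.7% called, against 24.6% of all genes) and a median of 0.02. Mpv17, an inner membrane protein needed to maintain mitochondrial DNA in non-dividing tissue, fell by 0.37 on the log2 scale (SE 0.05, limma adjusted p = 0.000249). Dut, which removes dUTP, fell by 0.48 (SE 0.06, limma adjusted p = 0.000295), and the deoxyguanosine kinase gene Dguok fell by 0.23 (SE 0.05, limma adjusted p = 0.00928). Samhd1, a dNTP hydrolase found in myeloid cells, rose by 0.48 (SE 0.09, limma adjusted p = 0.00237). Rrm1, the large subunit of ribonucleotide reductase, rose by 0.40 (SE 0.08, limma adjusted p = 0.0044). These 5 genes passed in all 17 alternatives. With array weights 5 genes of the list rose.

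The remaining calls of that list, named after their values were seen, were the ribonucleotide reductase subunits Rrm2 (0.37, SE 0.10), used by dividing cells, and Rrm2b (-0.20, SE 0.06), used by resting cells. Rrm2 lost its call without WT replicate 1, WT replicate 3, KO replicate 2 or KO replicate 3 (adjusted p 0.0516 to 0.059, differences 0.31 to 0.35). Rrm2b passed in 9 of its 17 alternatives and lost its call without WT replicate 1, 2 or 4 or KO replicate 1, 3 or 4 (adjusted p 0.0816 to 0.0972, differences -0.20 to -0.17). All 8 macrophage markers rose in the same hearts, by a median of 1.36 (for example Lyz2 by 1.41 and Cd68 by 1.46), and their summed intensity was 2.58 times that of WT. Of 8 cardiomyocyte markers 0 rose and 3 fell, among them Ryr2 by 0.53 on the log2 scale, and 5 did not pass. Of 6 endothelial markers none passed, and 2 of 6 fibroblast markers rose. Of 4 smooth muscle, 3 lymphocyte and 2 liver markers none passed, though 1 liver marker was higher in every KO heart than in any WT heart. Of all genes tested 10.8% rose and 13.9% fell. What part these cell types have in the rises of Samhd1, Rrm1, Rrm2, Tfam and Tfb2m was not tested. Their part in the falls, such as that of Polrmt, was not tested either.

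Coactivators and regulators that act with NRF-1 and GABP showed few calls, 1 rise and 1 fall among 17 measured genes (11.8% called, against 24.6% of all genes), with a median of 0.01. Ppargc1b, which encodes PGC-1β, a coactivator of mitochondrial genes, fell by 0.33 on the log2 scale (SE 0.09, limma adjusted p = 0.019, and 0.0544 without KO replicate 1, the highest of a range from 0.00444). Myc, a growth regulator, rose by 0.63 (SE 0.17, limma adjusted p = 0.0246), with overlap of the groups. Its adjusted p was 0.0693 without KO replicate 1 and 0.0713 without KO replicate 2 (range 0.00751 to 0.0713). The best known coactivator of NRF-1, Ppargc1a, differed by 0.22 (SE 0.11, limma adjusted p = 0.19), did not pass in any of 17 alternatives and was named after its values were seen.

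Among 14 measured nuclear genes described as targets of NRF-1 or GABP, 1 rose, 2 fell and 11 did not pass (21.4% called, against 24.6% of all genes), with a median of -0.04. Alas1, the first enzyme of heme synthesis, rose by 0.32 (SE 0.05, limma adjusted p = 0.00164). Sdhb, a subunit of succinate dehydrogenase, fell by 0.26 on the log2 scale (SE 0.04, limma adjusted p = 0.00135), and Cox8a, a subunit of cytochrome oxidase, fell by 0.19 (SE 0.05, limma adjusted p = 0.0117). These 3 genes passed in all 17 alternatives. The falls of this list numbered 4 without KO replicate 4, with the stricter filter and with array weights, and 5 with a trend of variance on level and robust variances used together.

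**Figure D4:**
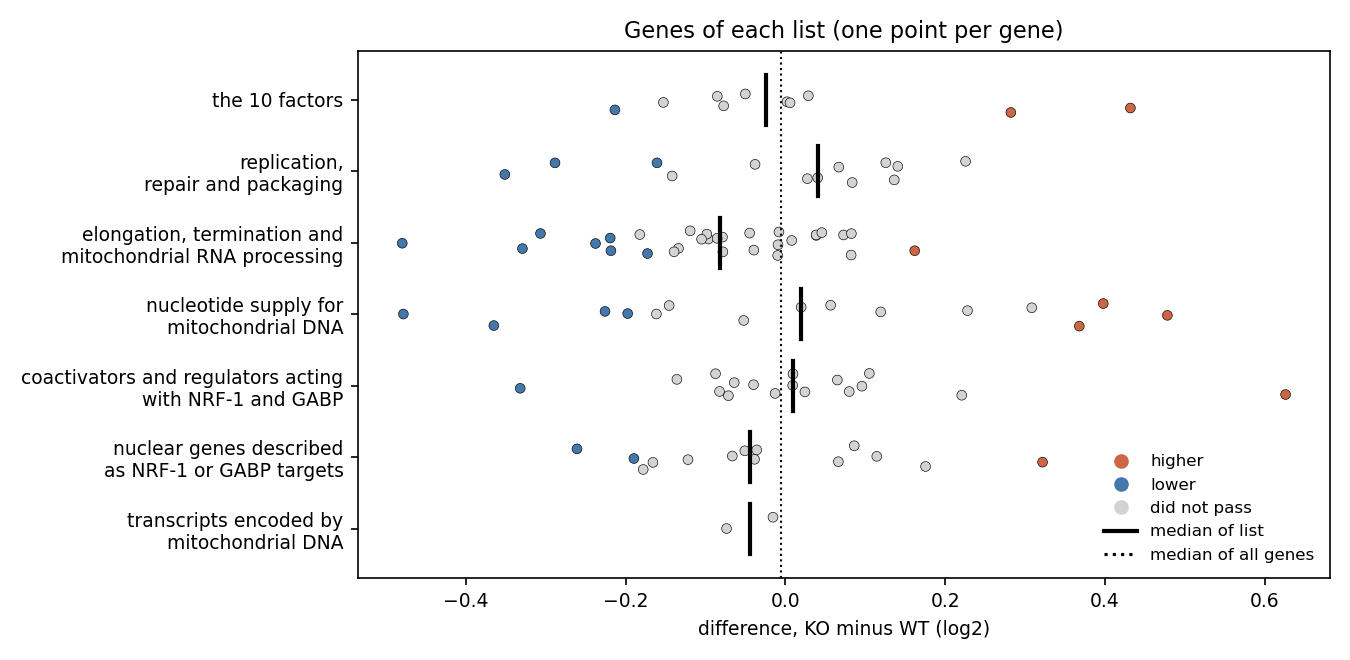
Difference of every measured gene (one point each, KO minus WT, log2) in the 10 factors and 6 related lists, orange for genes that rose, blue for genes that fell and grey for genes that did not pass, with a bar at each list's median and a dotted line at the median of all genes tested (-0.01). The list medians lie between -0.08 and 0.04, and genes with rises and with falls stand side by side in most lists.

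The genes whose values followed Polrmt most closely over the 8 hearts, by the Euclidean distance between deviations from the WT mean on the log2 scale, were Apip (distance 0.07), Zfp512 (0.09) and Gja3 (0.10). Their differences were -0.21, -0.22 and -0.24, beside -0.21 for Polrmt. Differences near that of Polrmt follow from choosing the genes by this distance and are no separate result. Apip passed in 13 of 17 alternatives.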

How the data were processed

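Total RNA from 8 hearts was measured on Affymetrix Mouse Gene 1.0 ST arrays. The authors deposited 1 linear intensity per transcript cluster and array for 27541 clusters; Partek and RMA are named, with no version or role, per the submitters' processing notes. The probe annotation, genome build, scanner files, detection calls and scan dates are not stated in the labels or the file, so a batch that follows the groups cannot be told apart from them. Array medians lay between 54.1 and 56.5 and no further scaling was applied.

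The platform annotation paired 21631 clusters with 1 gene symbol, 1317 with several and 4593 with none; clusters with several or none were not used. The brightest cluster stood for a gene, the dimmest 25% of genes by mean level (intensity under 22.6) were left out, and log2 values of 4 KO and 4 WT arrays were compared with limma 3.58.1 in R 4.3.3 (lmFit, eBayes, two-sided, no covariate), with Benjamini-Hochberg adjustment over all 14950 genes. The code was tested on simulated data. Figures used matplotlib 3.10.9.

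The members and lists were chosen with earlier results of these data known. Genes were named by a rule: all members, both mitochondrial transcripts, Hdac3, up to 5 called genes per list by p (otherwise 2), up to 2 macrophage or cardiomyocyte markers, and the 3 genes nearest to the member with the smallest p. Motif letters and pairs of members were chosen after the values were seen. The replicate numbers did not pair the hearts.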

Additional observations from a re-analysis of the deposited data

Results flagged for a closer look

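In 4 of the 96 groups of 4 hearts examined (48 named genes in WT and in KO), 1 heart stood apart from the other 3 by Dixon's gap ratio at the 95% level, which chance gives in about 1 of 20 groups. None of the 10 factors was among them. Hdac3 was 8.50 in KO replicate 4, against 8.59 in the other KO hearts. Lig3 was 7.26 in WT replicate 1, against 7.50 to 7.54 in the other WT hearts. Hsd17b10 was 10.63 in KO replicate 1, against 10.61 in the other KO hearts. Mpv17 was 9.60 in KO replicate 1, against 9.55 to 9.56 in the other KO hearts.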

How the results depend on the processing

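The counts of all called genes stayed within 1.5 times their reported values in all 17 alternatives (1213 to 2177 higher, 1658 to 2352 lower). Members called higher numbered 2, and 1 without WT replicate 3, KO replicate 1 or KO replicate 2 (range 1 to 2 over single hearts left out). Members called lower numbered 1, and 0 with quantile normalization, when only the scaling changed. Tfam, Tfb2m and Polrmt kept their directions in all 17 alternatives. The signs of differences near 0 turned: Polg2 (0.0018) was -0.0099 with arrays centred on 1 median, -0.0232 with quantile normalization, -0.0005 with an offset of 16 and -0.0016 with array weights, and -0.0592 to 0.0809 with single hearts left out. Nrf1 was -0.0060 with centring, -0.0015 with quantile normalization and -0.0062 to 0.0282 with single hearts left out. Gabpb1 ranged from -0.0268 to 0.0829 and COX2 from -0.0497 to 0.0123 with single hearts left out. Cycs, an added gene at 0.18, was -0.0514 when its clusters were averaged. With the replicate block 1466 genes were higher and 1916 lower, and the block changed the call of no member. Of the other genes named, the block ended the calls of Twnk (adjusted p 0.0811), Elac2 (0.0829), Mrpl12 (0.0541) and Myc (0.0503). Same-numbered hearts did not deviate together (correlations -0.04 to 0.08), and 1 of 4 WT hearts correlated best with its own number. The number of arrays limits the precision of every difference, and the detection limit is unknown, which bears on dim genes such as Polg2.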
